A study of Mus musculus with 4 samples.

Results

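The genes of MHC class I and of its peptide supply were followed in BM macrophages by single-cell RNA sequencing. The 10 genes were taken by symbol from the 31053 genes of the count matrices, and all 10 were present: the heavy chains H2-K1 and H2-D1, the light chain B2m, the peptide transporter Tap1 and Tap2, the loading factor Tapbp, the immunoproteasome subunits Psmb8, Psmb9 and Psmb10, and the transactivator Nlrc5. BM macrophages were grown from the marrow of C57BL/6J mice, male and 4 to 6 weeks old according to the methods and 4 weeks old in the description of the single-cell experiments, in M-CSF for 4 days. Efferocytic BM macrophages were sorted as F4/80+CFSE+ after 16 to 18 h with UV-killed, CFSE-labelled RM1 cells, a prostate cancer line of C57BL/6J origin, at 1 apoptotic cell per macrophage. Non-efferocytic BM macrophages were sorted as F4/80+ only. The study's discussion calls them macrophages alone, while its results call them non-engulfing. It is therefore unclear whether those macrophages had been kept with dying cells, and if they had not, exposure and engulfment cannot be told apart. No engineered allele is named for these mice. Each of 2 experiments gave 1 library per group, so a group holds 2 libraries, and the sources used here do not say whether mice were pooled. The cells kept had at least 200 genes, at least 1000 UMIs (counted molecules) and at most 10% mitochondrial UMIs.

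Nearly every nucleated cell shows MHC class I. Proteasomes cut cytosolic proteins, the TAP transporter carries the peptides into the endoplasmic reticulum, and tapasin with calreticulin, ERp57 and calnexin fits them into a heavy chain paired with β2-microglobulin for inspection by CD8 T cells. Interferon replaces the constitutive catalytic proteasome subunits with immunoproteasome subunits and raises the rest of the pathway, partly through IRF1 and NLRC5. Macrophages can also load peptides of engulfed material onto class I, which is called cross-presentation.

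In Experiment 1, 8280 cells without and 6695 cells with efferocytosis were kept, at means of 12224 and 18670 UMIs per cell. In Experiment 2 there were 13411 and 8408, at means of 10316 and 18461. All 9 macrophage markers were detected in every library, and by edgeR 5 of them were lower and 1 higher in efferocytic libraries, among them Csf1r (log2 fold change -1.15), C1qa (-0.67) and Adgre1 (-0.38). All 6 monocyte and all 9 neutrophil markers were also lower by edgeR: in UMI counts scaled to a library total of 1000000 (CPM), the monocyte genes summed to 224 without and 79.1 with efferocytosis in Experiment 1 and to 247 and 61.9 in Experiment 2, and the neutrophil genes summed to 3046 and 953 and to 3339 and 705. For 7 epithelial genes the sums were 0.534 and 0.112 CPM in Experiment 1 and 10.6 and 8.62 CPM in Experiment 2, and 1 of them was called lower. Fibroblast and stromal genes were lower in 4 of 6 by edgeR (145 and 46.3 CPM in Experiment 1, 121 and 52.2 CPM in Experiment 2), dendritic cell and B cell genes each in 2 of 3 tested, and T and NK cell genes in 1 of 5, and the erythroid genes summed to 39.6 and 41.0 CPM in Experiment 2. The study lists RM1 as fibroblast-like, so neither the epithelial nor the fibroblast genes single out RM1 material. RM1 cells carry the same class I genes, and UMIs of engulfed RNA cannot be told apart from those of the macrophage. The 2 libraries of Experiment 2 shared 118 cell barcodes, where 16.6 would be shared by size alone, and the other pairs shared 14 to 23.

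In GENCODE vM21 (GRCm38), 7 members lie on chromosome 17: Tapbp (chr17:33915899-33929292, plus strand), H2-K1 (chr17:33996017-34000347, minus), Psmb9 (chr17:34181987-34187764, minus), Tap1 (chr17:34187553-34197225, plus), Psmb8 (chr17:34197721-34201454, plus), Tap2 (chr17:34203527-34216321, plus) and H2-D1 (chr17:35262730-35267499, plus). B2m (chr2:122147686-122153083, plus), Nlrc5 (chr8:94434356-94527272, plus) and Psmb10 (chr8:105935735-105938444, minus) lie elsewhere. For 8 of the 10 members, RefSeq (GRCm38.p6) gave the sequence around a transcription start, and motifs were searched on both strands in the 250 bases before it. The enhancer and the stretch from the X2 to the Y box are shown because interferon, NF-κB and the NLRC5 complex are known to act on class I genes there. Capitals mark the motif matches. The upstream sequence of H2-K1 (chr17:34000349-34000547, minus strand) and that of B2m (chr2:122147487-122147685, plus strand) were as follows.
H2-K1: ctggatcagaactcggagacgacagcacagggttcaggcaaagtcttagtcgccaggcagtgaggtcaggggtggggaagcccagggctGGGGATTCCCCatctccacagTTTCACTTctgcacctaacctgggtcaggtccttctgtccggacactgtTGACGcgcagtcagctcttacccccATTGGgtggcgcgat
B2m: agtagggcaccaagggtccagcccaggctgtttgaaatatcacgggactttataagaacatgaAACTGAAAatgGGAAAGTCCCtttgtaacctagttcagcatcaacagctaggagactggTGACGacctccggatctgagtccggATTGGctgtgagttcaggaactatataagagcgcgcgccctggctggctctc

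H2-K1 and H2-D1 shared an enhancer in which a match to the NF-κB consensus stood 21 bases before a match to the IRF motif (AANNGAAA, here read on the other strand). In B2m the order was turned round, and the IRF match stood 11 bases before the NF-κB match. The H2-D1 stretch lies at chr17:35262923-35262951 on the plus strand, before the RefSeq start used but within the GENCODE span of H2-D1. In H2-K1 and H2-D1 the capitals of the first run cover a pair of overlapping NF-κB matches.
H2-K1 enhancer: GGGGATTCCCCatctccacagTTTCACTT
H2-D1 enhancer: GGGGATTCCCCatctcctcagTTTCACTT
B2m enhancer: AACTGAAAatgGGAAAGTCCC
Of 32817 promoter windows of the same length, 7.25% held the NF-κB consensus and 21.3% the IRF motif. In all 3 genes a TGACG match (the X2 box) stood 25 bases before a match to CCAAT (the Y box, read on the other strand). The X2 letters were found in 17.7% and the Y letters in 33.8% of all windows. The H2-D1 stretch from X2 to Y lies at chr17:35262993-35263022 on the plus strand.
H2-K1 X2 to Y: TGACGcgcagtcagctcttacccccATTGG
H2-D1 X2 to Y: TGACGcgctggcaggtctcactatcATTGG
B2m X2 to Y: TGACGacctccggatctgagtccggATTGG
Psmb9 and Tap1 are read in opposite directions, and 225 bases lie between their RefSeq starts on chromosome 17 (Psmb9 at 34187330, Tap1 at 34187556). The GENCODE gene spans given above reach farther upstream and overlap there. The 250 bases before either start held TGACG and CCAAT matches, but not spaced as in H2-K1, H2-D1 and B2m. Counted from the Tap1 start, CCAAT lay at -222 and TGACG at -86, and from the Psmb9 start TGACG lay at -144 and CCAAT at -8. No match to the IRF motif, the NF-κB consensus or the GAS motif (TTCNNNGAA) was found there. The TGACG letters lie within chr17:34187458-34187486 (plus strand).
Psmb9 and Tap1: cccagagacaggTGACGacagagggtcct
Psmb8, a little farther along chromosome 17, held 1 GAS match, a motif found in 7.01% of windows, and Psmb10 on chromosome 8 held none of the 5 motifs searched.

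The first question was whether efferocytic BM macrophages differ from non-efferocytic BM macrophages in these genes. Tap1 and Psmb9, the neighbours that share an upstream stretch, were called lower, but both calls were lost without experiment as a block in the fit. By edgeR's quasi-likelihood test with Benjamini-Hochberg adjustment over 13869 genes, 2 of 10 members were lower and 0 were higher. Of all genes tested, 38.9% were called, 19.0% lower and 19.9% higher. The members' share called lower was therefore close to that of all genes, and the share called higher was below it. At an unadjusted p under 0.05, 4 members and 24.4% of all genes were lower, with 0 members higher, and DESeq2 called 3 members and 10.2% of all genes lower, with 0 members higher. The members' median log2 fold change was -0.18, beside -0.02 over all genes. Fold changes follow TMM, edgeR's scaling between libraries, so they can differ from ratios of the CPM printed beside them. Scaled to library totals, as CPM are, 6 of 10 members and 26.7% of all genes were called lower.

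**Figure D1:**
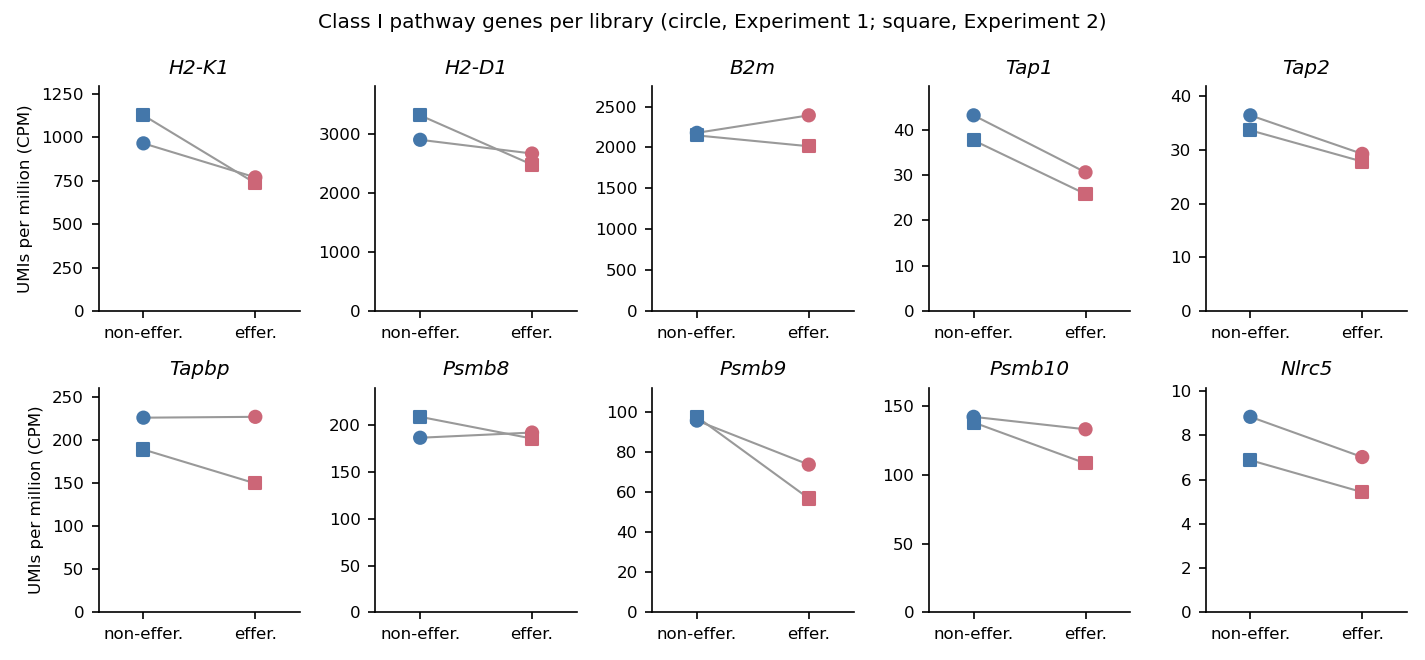
Level of each of the 10 genes (CPM, y axis from 0) in each library, with non-efferocytic libraries in blue, efferocytic libraries in red and a line joining the 2 libraries of an experiment. Tap1 and Psmb9 sit lower in both efferocytic libraries, while B2m runs from 2179 to 2393 CPM in Experiment 1 and from 2147 to 2015 CPM in Experiment 2.

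Tap1, which forms the peptide transporter together with Tap2, was at 43.2 CPM in the non-efferocytic and 30.6 CPM in the efferocytic library of Experiment 1. In Experiment 2 it was at 37.7 and 25.8 CPM. Both efferocytic libraries lay below both non-efferocytic ones, and the log2 fold change was -0.41 (SE 0.0774, adjusted p = 0.00467, edgeR). Tap2 was at 36.5 and 29.3 CPM in Experiment 1 and at 33.7 and 27.9 CPM in Experiment 2. The libraries of Tap2 did not overlap either, but its log2 fold change of -0.19 (SE 0.0746) had an adjusted p of 0.0793 by edgeR. Within a library, Tap1 made up 54.2% of the summed Tap1 and Tap2 UMIs in the non-efferocytic and 51.1% in the efferocytic library of Experiment 1. In Experiment 2 the shares were 52.8% and 48.1%, and the mean difference over both experiments was -3.90 percentage points. Without cells in which the interferon response list holds over 0.1% of UMIs, the shares were 47.7% and 46.9% in Experiment 1, with overlapping binomial intervals, and 49.95% and 46.1% in Experiment 2, and the mean difference was -2.35 points.

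Psmb9, the β1i subunit of the immunoproteasome, was at 95.8 and 73.8 CPM in Experiment 1 and at 97.6 and 56.9 CPM in Experiment 2 (non-efferocytic, then efferocytic). Its log2 fold change was -0.47 (SE 0.116, adjusted p = 0.0149, edgeR), and the groups did not overlap. Psmb8, the β5i subunit, was at 187 and 192 CPM in Experiment 1 and at 209 and 186 CPM in Experiment 2. Psmb8 thus stood higher in one efferocytic library and lower in the other, with a log2 fold change of 0.04 (SE 0.102, adjusted p = 0.760, edgeR). Psmb10, the β2i subunit, was at 142 and 133 CPM in Experiment 1 and at 138 and 109 CPM in Experiment 2. Its libraries did not overlap, and its log2 fold change of -0.12 (SE 0.102) had an adjusted p of 0.399 by edgeR.

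The classical heavy chains present peptides to CD8 T cells. H2-K1 was at 966 and 770 CPM in Experiment 1 and at 1127 and 736 CPM in Experiment 2. It did not pass the test, with a log2 fold change of -0.36 (SE 0.131, adjusted p = 0.0591, edgeR), although its groups did not overlap. H2-K1 lay close to the threshold: its adjusted p fell under 0.05 in 7 of the 16 other settings that keep all libraries and do not scale to cells, among them DESeq2 (0.0144) and macrophage-like cells alone (0.0460). H2-D1 was at 2909 and 2675 CPM in Experiment 1 and at 3324 and 2486 CPM in Experiment 2, with a log2 fold change of -0.16 (SE 0.157, adjusted p = 0.439, edgeR). H2-K1 made up 24.9% and 25.3% of the summed UMIs of both heavy chains in the non-efferocytic libraries and 22.3% and 22.8% in the efferocytic ones.

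B2m, the light chain without which heavy chains do not reach the surface stably, was at 2179 and 2393 CPM in Experiment 1 and at 2147 and 2015 CPM in Experiment 2. It was higher in one efferocytic library and lower in the other, with a log2 fold change of 0.13 (SE 0.146, adjusted p = 0.509, edgeR). Against the heavy chains it moved one way: B2m held 36.0% and 32.5% of the summed B2m, H2-K1 and H2-D1 UMIs in the non-efferocytic libraries and 41.0% and 38.5% in the efferocytic libraries. Tapbp, which encodes tapasin, was at 226 and 227 CPM in Experiment 1 and at 189 and 149 CPM in Experiment 2 (log2 fold change -0.06, SE 0.116, adjusted p = 0.717, edgeR). Nlrc5 was rare, at 8.84 and 7.02 CPM in Experiment 1 and at 6.88 and 5.44 CPM in Experiment 2. The libraries of Nlrc5 overlapped between experiments, and its log2 fold change was -0.23 (SE 0.105, adjusted p = 0.117, edgeR).

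In CPM, 6 of 10 members lay lower in both efferocytic than in both non-efferocytic libraries, as did 44.7% of all genes tested. UMIs mark transcript ends and are not scaled by transcript length here. In barcodes of at most 100 UMIs, which hold mostly free RNA, Tap1 was at 44.7 and 45.4 CPM in Experiment 1 and at 55.2 and 58.5 CPM in Experiment 2 (non-efferocytic, then efferocytic), and Psmb9 at 102 and 98.6 CPM and at 103 and 88.7 CPM. In an alternative fit, free RNA was assumed to make up 10% of the UMIs in the cells of every library. That amount was subtracted in the gene proportions of these barcodes. This fit left Tap1 called (log2 fold change -0.54) and Psmb9, at a fold change of -0.56, no longer called (adjusted p = 0.0760, edgeR). In it 7.65% of all genes were called lower. The calls also rest on single libraries and on the block for experiment. Without the block 0 members were called by edgeR (adjusted p = 0.0943 for Tap1 and 0.102 for Psmb9), and 7.74% of all genes were called lower. Over the 4 fits that leave out 1 library, the log2 fold change ran from -0.57 to -0.25 for Tap1 and from -0.69 to -0.24 for Psmb9. Each was smallest without the efferocytic library of Experiment 2. Such a fit leaves a lone library in 1 group, so only fold changes are given here for the members. When the non-efferocytic library of Experiment 1 was left out, 2 of all genes were called, and when that of Experiment 2 was, 0 were, by edgeR without the block, with 2999 and 3494 genes at an unadjusted p under 0.05.

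**Figure D2:**
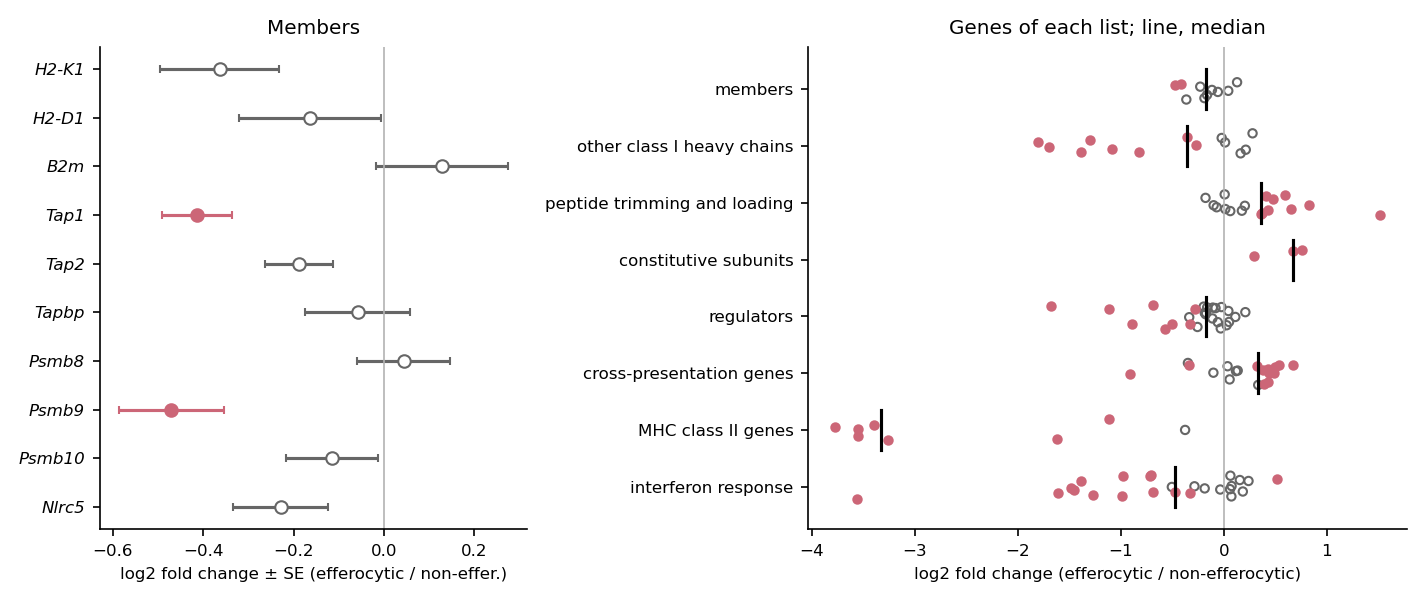
Left, log2 fold change (x axis) of each member with its standard error; right, the log2 fold change of every tested gene of 8 gene lists, with a black line at each list's median. Filled red points passed the test, and the members' median of -0.18 lies between that of the class II genes (-3.33) and that of the peptide loading genes (0.37).

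Per cell the picture was the opposite, because efferocytic cells held more UMIs. H2-D1 was found at 35.6 UMIs per cell in the non-efferocytic and 49.9 in the efferocytic library of Experiment 1, and at 34.3 and 45.9 in Experiment 2. B2m rose from 26.6 to 44.7 and from 22.2 to 37.2 UMIs per cell in the same order. Tap1 went from 0.528 to 0.571 and from 0.389 to 0.477, and Psmb9 from 1.17 to 1.38 and from 1.01 to 1.05. Over all cells kept, each of the 10 members had more UMIs per cell in the efferocytic library of both experiments. This depends on the cells of few UMIs for Psmb9, which without clusters of few UMIs was at 1.21 and 1.09 UMIs per cell in Experiment 2, and by the Cell Ranger rule at 1.24 and 1.11. In cells of at least 5000 UMIs, H2-K1 turned as well in Experiment 2, at 14.7 and 14.3 UMIs per cell, and 8 members remained higher in both experiments. When the fit was scaled to the number of cells, the median of all genes moved to 0.60, and 5 members were called higher (H2-D1, B2m, Tapbp, Psmb8 and Psmb10) and 0 lower, while 49.9% of all genes were called higher, so the members' share was that of all genes. Relative to that median, B2m lay above it at 0.75, Tap1 lay below it at 0.20 and Psmb9 at 0.15 (log2). Whether the larger UMI count comes from the macrophage, from engulfed RNA or from cell doublets was not tested.

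**Figure D3:**
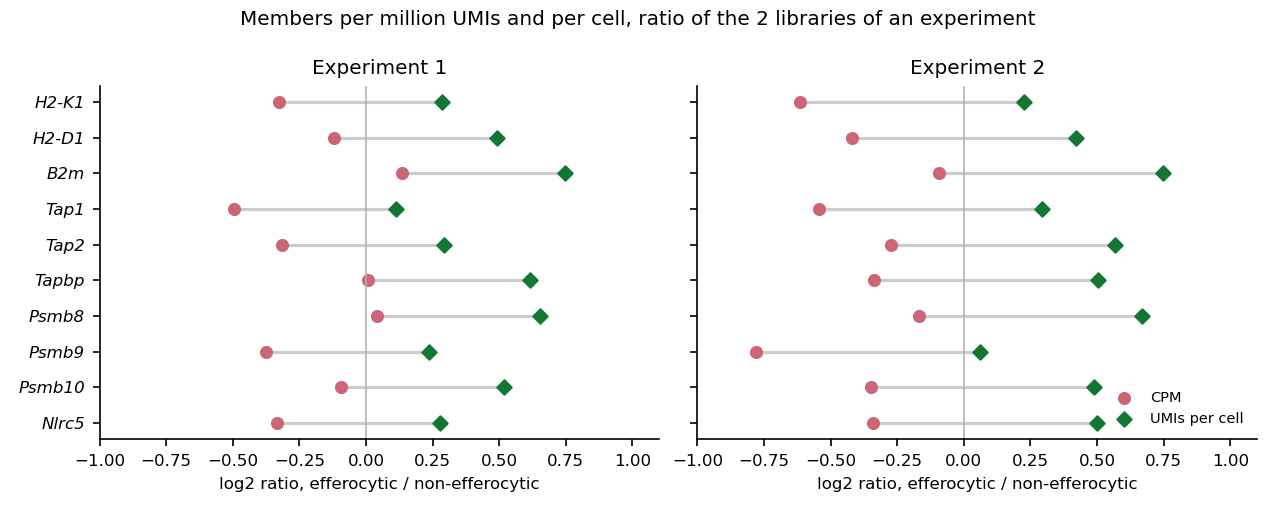
Log2 ratio of the efferocytic to the non-efferocytic library (x axis) for each member, in CPM (circles) and in UMIs per cell (diamonds), for each experiment. Over all cells kept, all diamonds lie above 0, and for Psmb9 in Experiment 2 the CPM ratio is -0.78.

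The proteasome was next compared within libraries, a measure that no scaling changes. Immunoproteasome and constitutive subunits take the same catalytic place: Psmb8 stands in for Psmb5, Psmb9 for Psmb6 and Psmb10 for Psmb7. Psmb9 made up 17.7% of the summed Psmb9 and Psmb6 UMIs in the non-efferocytic library of Experiment 1 (95% exact binomial interval 17.4 to 18.0) and 8.71% in the efferocytic library (8.54 to 8.88). In Experiment 2 the shares were 15.2% (15.0 to 15.5) and 6.82% (6.68 to 6.95). The intervals cover counting error only. Psmb8 made up 46.8% and 36.6% of Psmb8 and Psmb5 in Experiment 1 and 43.4% and 32.7% in Experiment 2. Psmb10 made up 61.8% and 56.7% of Psmb10 and Psmb7 in Experiment 1 and 61.6% and 52.9% in Experiment 2. All 3 immunoproteasome shares were lower in the efferocytic library of both experiments: the share of Psmb9 fell by 8.69 percentage points on average (SD 0.416 between experiments), that of Psmb8 fell by 10.4 (SD 0.341) and that of Psmb10 fell by 6.90 (SD 2.55). With 2 libraries against 2, an exact permutation test of a single share cannot give a two-sided p below 0.333, so none was run.

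Psmb5, Psmb6 and Psmb7, all 3 of the constitutive catalytic subunits, rose by edgeR. Psmb6 was at 445 and 773 CPM in Experiment 1 and at 544 and 778 CPM in Experiment 2 (log2 fold change 0.76, SE 0.126, adjusted p = 0.00274, edgeR). Psmb5 was at 212 and 332 CPM and at 273 and 382 CPM (log2 fold change 0.68, adjusted p = 0.00216, edgeR). Psmb7 was at 88.1 and 102 CPM and at 86.3 and 96.8 CPM (log2 fold change 0.29, adjusted p = 0.0246, edgeR). Of the immunoproteasome subunits only Psmb9 was called lower, while Psmb10 lay lower in both efferocytic libraries without passing the test and Psmb8 lay higher in one and lower in the other.

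**Figure D4:**
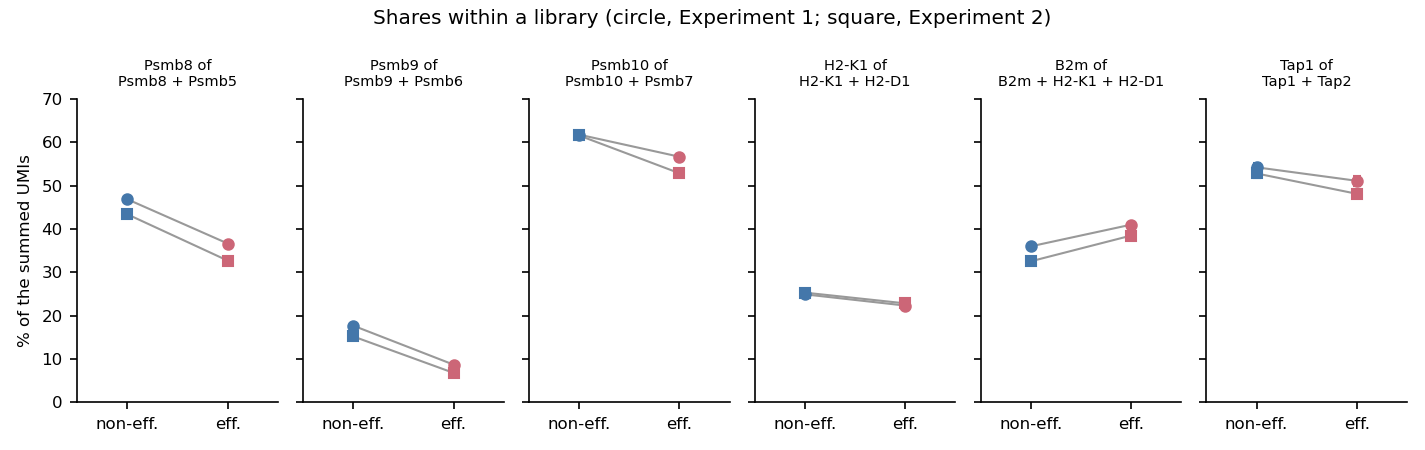
Share of each member in a summed UMI count (percent, y axis from 0) in each library, with 95% exact binomial intervals that are mostly smaller than the symbols. The shares of Psmb8, Psmb9, Psmb10, H2-K1 and Tap1 are lower in the efferocytic library of both experiments, and that of B2m is higher.

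Among other peptide generation, trimming and loading genes, 9 of 17 rose and 0 fell by edgeR (unadjusted, 11 and 1, and by DESeq2, 9 and 0), and the median log2 fold change was 0.37. The largest increases were those of the chaperones that hold the heavy chain while it is loaded. Calr (calreticulin) was at 207 and 517 CPM in Experiment 1 and at 184 and 519 CPM in Experiment 2 (log2 fold change 1.51, adjusted p = 7.23e-05, edgeR). Pdia3 (ERp57, which bonds to tapasin) changed by 0.83 and Canx (calnexin) by 0.65. All 3 serve glycoprotein folding in general and not class I alone. The other 6 that rose changed by 0.37 to 0.59 (log2). Tapasin itself, and Tapbpl at -0.10, did not pass.

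The other class I and class I-like heavy chains went the other way: 8 of 13 tested fell and 0 rose by edgeR (unadjusted, 8 and 1, and by DESeq2, 6 and 0), with a median of -0.36. Fcgrt, the neonatal Fc receptor that recycles IgG, was at 174 and 74.5 CPM in Experiment 1 and at 139 and 41.0 CPM in Experiment 2 (log2 fold change -1.39, adjusted p = 0.000321, edgeR). Hfe, a regulator of iron uptake, changed by -0.83, and H2-Q4 by -1.09. H2-T22 changed by -0.36 and H2-M3, which presents formylated peptides, by -0.27. Of genes under 10 CPM, named here after their values were seen, H2-Q6, H2-Q7 and H2-Q10 also fell. H2-T23 (Qa-1, a ligand of NK cell receptors) was at 282 and 305 CPM in Experiment 1 and at 248 and 201 CPM in Experiment 2 and did not pass (log2 fold change 0.01). Some reads of these genes may match another gene as well. Of the 90-base windows in the last 500 bases, 26.5% of those of H2-T22, 13.4% of those of H2-T23, 10.9% of those of H2-Q6 and 9.49% of those of H2-Q4 also occur in another gene. The other gene was not always a class I gene, as with Reep3 for H2-Q4 and Cd59b for H2-Q6. For the 10 members 0 of 411 windows did so.

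Regulators of class I transcription were tested as 26 genes, of which 8 fell and 0 rose by edgeR (unadjusted, 12 and 0, and by DESeq2, 7 and 0). Relb, an NF-κB subunit, was at 16.3 and 8.01 CPM in Experiment 1 and at 16.2 and 6.09 CPM in Experiment 2 (log2 fold change -1.11, adjusted p = 0.000503, edgeR). Irf1, a direct activator of class I genes under interferon, was at 21.3 and 13.5 CPM and at 25.1 and 9.92 CPM (log2 fold change -0.89, adjusted p = 0.00387, edgeR). Ifngr1, a chain of the interferon-γ receptor, changed by -0.69. The list's median was -0.17. Rfxank, a subunit of the complex through which NLRC5 works, fell from 8.78 and 9.38 to 5.72 and 5.64 CPM, and Socs3 also fell (both named after their values were seen).

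Of 25 interferon response genes, 13 fell and 1 rose by edgeR, with a median of -0.48. Gbp2 changed by -1.46, Ifit2 by -0.99 and Ifit3 by -0.98, while Oas1a rose by 0.52. Of 8 MHC class II genes tested, 7 fell and 0 rose by edgeR, as at an unadjusted p under 0.05 and by DESeq2, with a median of -3.33. Of those with a mean of at least 10 CPM the largest changes were those of H2-Ab1 (-3.55), H2-Eb1 (-3.55) and H2-Aa (-3.40), and Ciita, the class II transactivator, rarer and named after its values were seen, changed by -3.77. Leaving out cells in which H2-Aa, H2-Ab1 and H2-Eb1 together hold over 0.02% of UMIs (class II-high cells) kept Tap1 (adjusted p = 0.0107) and Psmb9 (adjusted p = 0.0359) called lower by edgeR. In that fit 18.0% of all genes were called lower, close to the members' share.

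Cross-presentation genes were tested as 19 genes, of which 10 rose and 2 fell by edgeR, with a median of 0.33. Wdfy4, a protein that dendritic cells need to cross-present cell-bound antigen, was at 23.9 and 29.9 CPM in Experiment 1 and at 22.7 and 39.8 CPM in Experiment 2 (log2 fold change 0.67, adjusted p = 0.00216, edgeR). Vcp, the segregase that pulls proteins out of membranes, changed by 0.54 and Sec61g, a subunit of the translocon, by 0.50. Snap23, a membrane fusion protein, changed by -0.34. Rab27a, named after its values were seen, also fell, from 1.81 and 1.78 CPM. Several of these genes serve protein folding and export in every cell.

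How the members vary among cells was described next. Each cell was thinned to 5000 UMIs, which left out 1099 and 544 cells in Experiment 1 and 3404 and 505 in Experiment 2. H2-K1 was detected in 98.0% and 95.8% of thinned cells in Experiment 1 and in 98.9% and 95.8% in Experiment 2. B2m and H2-D1 were detected in over 99% of thinned cells of every library. Tap1 was detected in 18.6% and 14.7% of thinned cells in Experiment 1 and in 17.2% and 12.2% in Experiment 2. Psmb9 was detected in 36.1% and 29.7% and in 36.9% and 23.1%. Without thinning, where efferocytic cells are deeper, the order of Tap1 turned round, with 35.3% and 39.3% in Experiment 1 and 28.8% and 35.1% in Experiment 2. No cell type without class I was at hand to set a background.

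Averaged over the 4 libraries, the 3 chains of the class I complex had the highest pairwise correlations among the members. They were also the most abundant members. In the non-efferocytic library of Experiment 1, thinned cells held means of 4.98 (H2-K1), 14.4 (H2-D1) and 11.3 (B2m) UMIs. The next member, Tapbp, was at 1.19. Whether the order of the correlations follows abundance was not tested. Over thinned cells, Pearson's r averaged 0.28 between H2-K1 and B2m, 0.26 between H2-K1 and H2-D1 and 0.18 between H2-D1 and B2m. Between B2m and Tapbp and between H2-D1 and Psmb8 it averaged 0.14, and in the non-efferocytic library of Experiment 2 it was 0.16 for H2-D1 and Psmb8, above 0.15 for H2-D1 and B2m. Between H2-K1 and Tap1 it averaged 0.06, and these sparse counts allow no more to be read from it. The genes most like the summed H2-K1, H2-D1 and B2m, by mean r over the 4 libraries among 4460 genes, were Ctss (0.38), Itm2b (0.28), Npc2 (0.25), Apoe (0.25), Ly6e (0.24), Ctsb (0.23), Creg1 (0.23), Psap (0.23), Fth1 (0.22) and Ctsz (0.22). These correlations share library, depth and cell, and are descriptions only.

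Cells were clustered within each experiment with class I genes left out of the variable genes. Clusters in which at least 7 of 9 macrophage markers were detected and no marker of another cell type led were called macrophage-like, and held 93.1% and 89.3% of cells in Experiment 1 and 77.0% and 94.6% in Experiment 2. Monocyte markers counted as those of another cell type. F13a1 thus left out an Arg1-led cluster with 0.0242% of non-efferocytic and 5.75% of efferocytic cells in Experiment 1. Ccr2 left out a class II-led cluster with 3.31% and 0.333% in Experiment 2. Whether the cells left out are macrophages was not tested. Clusters of few UMIs held 18.5% of the cells of the non-efferocytic library of Experiment 2 and 4.38 to 5.58% of the cells of the other libraries. Values by cluster are descriptions, since cells of 1 library are not replicates.

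Among macrophage-like clusters, the highest levels of most members stood in a cluster led by interferon-induced genes such as Cxcl10, Rsad2 and Ifit2. In the non-efferocytic library of Experiment 1, Tap1 was at 116 CPM there and at 35.9 CPM in the other macrophage-like clusters. Psmb9 was at 211 against 83.6 CPM and Nlrc5 at 25.7 against 7.24 CPM, while H2-D1 was at 3503 against 2904 CPM. The non-efferocytic library of Experiment 2 had the same order, with Tap1 at 126 against 35.1 CPM, Psmb9 at 266 against 90.9 CPM and H2-D1 at 3476 against 3340 CPM. Nlrc5, Tap1 and Psmb9 were therefore the most concentrated members in that cluster, and H2-D1 the least. In Experiment 1 this cluster held 9.06% of the cells of the non-efferocytic library and 1.39% of those of the efferocytic library, and in Experiment 2 it held 2.15% and 0.155%. The cells in which the interferon response list holds over 0.1% of UMIs are a wider set than this cluster. Leaving them out kept 62.5% of non-efferocytic and 47.7% of efferocytic cells in Experiment 1 and 76.4% and 81.8% in Experiment 2, so in Experiment 1 more of the efferocytic cells were in that set. The whole interferon list summed to 1333 and 1389 CPM in Experiment 1 and to 908 and 729 CPM in Experiment 2. In Experiment 1 both sums lie above the cut of 0.1% of UMIs, and the largest efferocytic cluster, cluster 1, was at 1508 CPM. Bst2 was the most abundant gene of the list (mean log2 CPM 8.80). The cut therefore does not single out cells in an interferon-led state. Without the cells above it, Tap1 and Psmb9 were lower by edgeR, with log2 fold changes of -0.34 (adjusted p = 0.0208) and -0.46 (adjusted p = 0.0194). H2-K1 was called too, beside 16.4% of all genes. The mean log2 ratio of Nlrc5 in CPM was -0.34 in all cells and -0.10 without them.

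**Figure D5:**
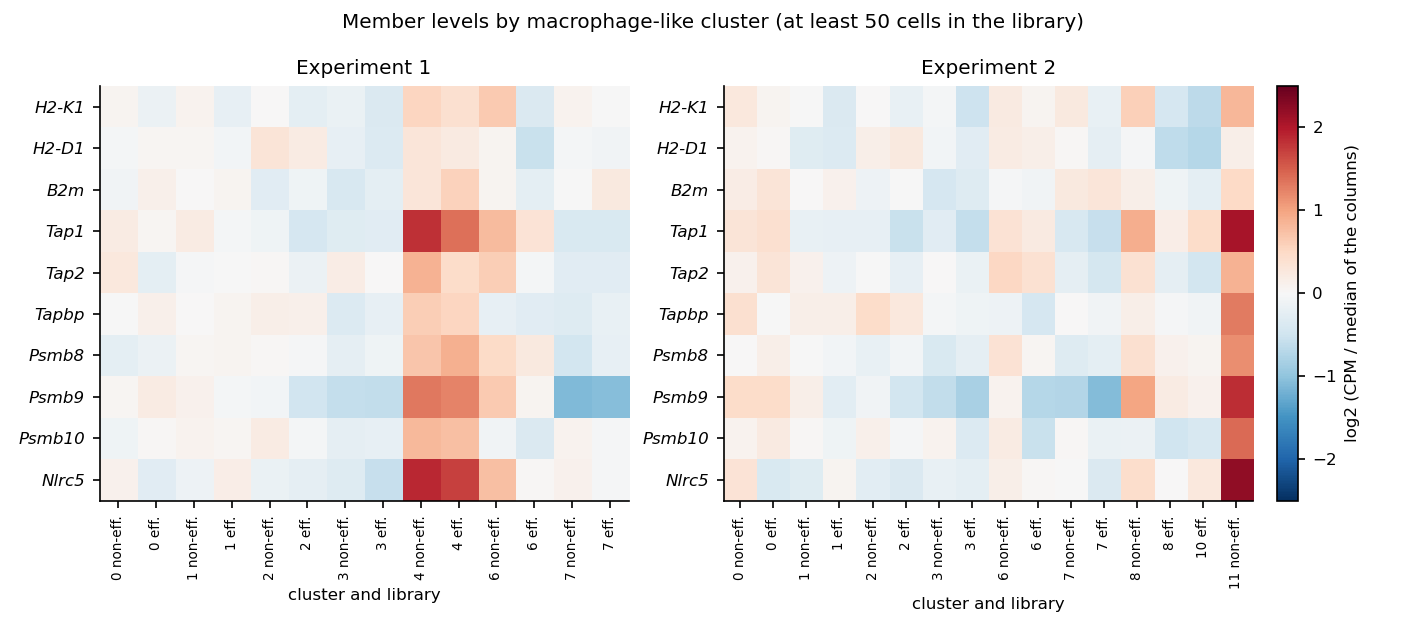
Level of each member (rows) in each macrophage-like cluster and library with at least 50 cells (columns), as the log2 ratio of its CPM to the median of the columns of that experiment, from -2.5 (blue) to 2.5 (red). The interferon-led clusters, 4 in Experiment 1 and 11 in Experiment 2, are red for Tap1, Psmb9 and Nlrc5.

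Other clusters showed further differences in the members. In clusters led by mitotic genes such as Birc5 and Cenpf, H2-K1 was at 1406 CPM in the non-efferocytic and 695 CPM in the efferocytic library of Experiment 1 and at 1462 and 727 CPM in Experiment 2. That was the widest gap for H2-K1 among the clusters compared. In clusters led by Prss46, Asns and Slpi, Psmb9 was at 39.2 and 40.1 CPM in Experiment 1 and at 44.8 and 35.1 CPM in Experiment 2, low in both groups. There H2-K1 was at 950 and 895 CPM in Experiment 1 (log2 ratio -0.08) and at 1156 and 849 CPM in Experiment 2 (-0.45).

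Over the 14 macrophage-like clusters with at least 50 cells in both libraries, 7 per experiment, H2-K1 was lower in the efferocytic cells of 14, with log2 ratios of CPM from -1.02 to -0.08. Tap1, Tap2, H2-D1 and Nlrc5 were each lower in 12 of 14, and Psmb9 and Psmb10 in 11. B2m was higher in 11 of 14 and Psmb8 in 9, with medians of 0.11 and 0.08. Psmb9 had the lowest median, -0.28. The clusters share their libraries and are not independent. How many of all genes were lower in as many clusters was not counted. On the scale of these ratios, library totals, the median of all genes over whole libraries was -0.12 (log2). In macrophage-like clusters summed per library, 4 members were called lower by edgeR (H2-K1, Tap1, Tap2 and Psmb9), beside 18.6% of all genes. Different clusters held most of these cells in each group: in Experiment 1 cluster 0 held 52.1% of non-efferocytic and 2.66% of efferocytic cells and cluster 1 held 3.74% and 52.5%, and in Experiment 2 cluster 0 held 47.1% and 0.963% and cluster 1 held 1.13% and 54.0%.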

How the data were processed

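The authors aligned reads against mm10 using Cell Ranger (version 3.0.0 in the methods and in the headers of Experiment 1, 3.1.0 in those of Experiment 2), and the deposited values are raw UMI counts of every barcode, with no filter on cells. The authors' integration and their tests on cells were not used. Counts were pooled by library, giving sums of 101216659 and 124997895 UMIs in Experiment 1 (non-efferocytic, efferocytic) and 138349389 and 155224183 in Experiment 2. They were tested with edgeR 4.0.16 in R 4.3.3 (quasi-likelihood, TMM, filterByExpr, experiment as a block, threshold 0.05), and the script was tested on simulated data. DESeq2 1.42.0 was an alternative. The block follows the study, which compared groups within experiments. The libraries of an experiment deviated together from their group means (correlation 0.799 over 7097 genes). A standard error is the log2 fold change divided by the square root of F. Nothing in the labels says which mice each library came from, so p-values refer to the spread between these libraries and not between mice. With 4 libraries and a block, edgeR's estimate of a gene's spread leans largely on that shared across all genes. Doublets were not called, and the top 5% of cells by UMIs were left out as an alternative. Clusters came from scanpy 1.11.5 and leidenalg 0.10.2 (5000 variable genes, 20 components, resolution 0.5). Shares have exact Clopper-Pearson intervals.

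The members and lists were chosen with earlier results of these data known. Named are the 10 members, in each list every called gene with a mean of at least 10 CPM (over 5 such genes, the 3 largest changes in each direction), and the 10 genes most correlated with the class I chains over cells. Sequences and starts are from RefSeq (GRCm38.p6), where 8 of 10 members matched by symbol. The printed H2-D1 stretches lie within the GENCODE span of H2-D1, and that of Psmb9 and Tap1 lies within the span of Psmb9. They are upstream of the RefSeq starts used, and not of every annotated start.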

Additional observations from a re-analysis of the deposited data

How the results depend on the processing

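Results were recomputed under 21 other settings of the fit, 2 of them chosen after seeing the data (without shared barcodes, and without clusters of few UMIs), which left the counts of members called as they were. For members lower (2 in the report), the count was 6 with library totals (26.7% of all genes), 4 with genes of a mean of at least 10 CPM (21.9%) and 4 in macrophage-like clusters (18.6%). It was 1 with free RNA removed at the assumed 10% of UMIs (7.65%) and 0 with UMIs per cell (4.23%). With UMIs per cell, 5 members and 49.9% of all genes were higher, against 0 members in the report. Library totals move the median of all genes to -0.12 and the share of calls that are higher from 51.2% to 33.3%. With no replicate block, which leaves out the pairing by experiment, 0 members were lower and 22 other list genes were lower, against 38 in the report. Leaving out 1 library gave 0 to 2 members lower, 0 to 32 other list genes lower and 0 to 13 higher, with 0 of each when either non-efferocytic library was left out, 0 members lower without the second efferocytic library, and 13 and 9 other list genes higher without the first and the second efferocytic library. These fits have no block, and a lone library is assumed to vary like the other group. The number of all genes called also varied with the library left out, so these counts do not single the members out. For other list genes, UMIs per cell gave 17 lower and 51 higher (23 in the report). Free RNA removed at the assumed 10% gave 19 lower and 15 higher. The block moved no other call on members.

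Per cell, the log2 ratio was 0.25 for H2-K1, 0.46 for H2-D1, 0.75 for B2m, 0.20 for Tap1, 0.43 for Tap2, 0.56 for Tapbp, 0.66 for Psmb8, 0.15 for Psmb9, 0.50 for Psmb10 and 0.39 for Nlrc5, and in the fit the 8 members with a negative value in the report (all but B2m and Psmb8) changed sign. For Psmb9 this ratio was 0.041 without clusters of few UMIs, 0.036 by the Cell Ranger rule and -0.019 in cells of at least 5000 UMIs, filters applied to the per-cell values after seeing the data. The fitted log2 fold change of Psmb8 was -0.064 with library totals and -0.052 with genes of a mean of at least 10 CPM. With 1 library left out, it also took both signs for B2m (-0.028 to 0.30), Tapbp (-0.40 to 0.28), Psmb8 (-0.032 to 0.13) and Psmb10 (-0.30 to 0.076), none of which passed the test in the report. Without interferon-high cells the mean log2 ratio of CPM was -0.42 for Tap1 and -0.10 for Nlrc5, and for Nlrc5 it was -0.32 by the Cell Ranger rule, -0.33 at 5% mitochondrial UMIs, -0.32 at 5000 UMIs, -0.32 in macrophage-like clusters and -0.31 without class II-high cells, beside -0.34 in all cells. Without thinning, the share of cells with a UMI was higher in efferocytic cells by 1.95 percentage points for H2-K1, 0.335 for H2-D1, 0.962 for B2m, 5.15 for Tap1, 8.64 for Tap2, 10.4 for Tapbp, 12.8 for Psmb8, 5.39 for Psmb9, 12.3 for Psmb10 and 2.48 for Nlrc5. The difference in the Psmb8 share was -11.0 points without the top 5% of cells, -9.17 without class II-high and -9.52 without interferon-high cells, and that of Psmb9 was -8.00 and -7.01 without the latter groups. The Tap1 share of Tap1 and Tap2 changed by -2.35 points without interferon-high cells, against -3.90 in all cells. The cause of these differences between settings was not tested. Nlrc5 rests on 844 to 952 UMIs a library.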
